A study of Homo sapiens with 24 samples.

Results

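The L-540 cell line, one of the 4 Hodgkin lymphoma (HL) lines of the study, was exposed for 24 hours to 10 µM AEZS-136, a small molecule that inhibits both PI3K and ERK, or to vehicle. RNA from 3 AEZS-136 and 3 vehicle samples was labelled with biotin and hybridised to Illumina bead arrays. The same 2 treatments at the same dose and time were applied to SUP-HD1, KM-H2 and L-428, with 3 arrays per line and treatment, which gave 24 arrays in all. In the study, cells of L-540 and of SUP-HD1 died on exposure to the compound, whereas the remaining lines resisted death. Each line is a long-term culture without the immune cells that surround HL cells in tissue. The probes described were chosen by their detection value, which was above 0.99 on at least 3 of the 6 L-540 arrays. They number 14707 of the 47323 probes on the array. The size of a response was not a criterion, but a probe detected in 1 group only could pass. Through the AEZS-136 arrays alone 362 probes passed, and through the vehicle arrays alone 231. The labels number the arrays of a group 1 to 3 but do not say whether they came from separate cultures. A figure legend of the study gives 3 independent experiments for bars that include 24-hour microarray changes of selected genes, without naming arrays. The p-values measure the spread between these arrays, which on the labels alone may be technical.

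PI3K passes growth signals to AKT and mTOR, and ERK is the last kinase of the RAS/RAF/MEK cascade. Together the pathways sustain protein synthesis, ribosome production, glucose and lipid metabolism and entry into the cell cycle. A cell that lowers protein synthesis under stress can raise the transcription factor ATF4 and its target genes, a programme called the integrated stress response.

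The 6 L-540 arrays were alike in brightness, with mean signals of 326.2 to 360.9 on the AEZS-136 arrays and 342.3 to 356.6 on the vehicle arrays. Between 30.9% and 31.3% of all probes were detected on the AEZS-136 arrays, and between 29.8% and 30.9% on the vehicle arrays. Replicates correlated at 0.994 to 0.995 within each group, and AEZS-136 arrays with vehicle arrays at 0.957 to 0.962. Of the marker lists, 10 of 12 Hodgkin cell genes were among the detected probes, with TNFRSF8 (CD30, the receptor that marks HL cells) detected on all 6 arrays. Only 3 of 13 T lineage genes (CD2, CD4 and CD247), 2 of 9 B lineage genes, 3 of 6 macrophage genes and 0 of 9 fibroblast and epithelial genes were detected.

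The vehicle arrays of L-540 stood apart from all others in one class of transcripts, the small non-coding RNAs. The 177 detected probes for these RNAs had a median log2 signal of 7.08, 7.10 and 7.07 on the AEZS-136 arrays of L-540, against 8.17, 8.15 and 8.06 on its vehicle arrays. The 18 arrays of the other lines lay between 6.97 and 7.33, so the treated L-540 arrays were inside the range of every other array and the L-540 vehicle arrays were above it. Within that range the vehicle arrays were also the higher ones. They had 7.23 to 7.33 against 7.02 to 7.07 with AEZS-136 in L-428, and 7.2 to 7.23 against 7.05 to 7.07 in SUP-HD1. In KM-H2 they had 6.99 to 7.03 against 6.97 to 6.98. Whether the small RNA differences below belong to the treatment or to these 3 control preparations cannot be told apart. The total counts of higher and lower probes and of differences from the other lines are given with and without these probes. So are the shares that fell in bins of vehicle signal. Other counts over all probes or genes include them.

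AEZS-136 moved 3914 of the 14707 detected probes, 26.6%, past an adjusted p of 0.05 (limma, over 20027 tested probes of the series) and a log2 fold change of at least 0.4. Of these, 1920 (13.1%) were higher and 1994 (13.6%) were lower than in vehicle. Over all tested probes the shares were 9.59% higher and 9.96% lower. Without the small RNA probes the counts were 1919 higher and 1864 lower. The median change was 0.61 among the higher probes and -0.62 among the lower ones, beside 0.01 over all detected probes, and the median standard error was 0.0896. Changes of at least 1 on the log2 scale were found for 316 higher and 289 lower probes. Changes of at least 2 were found for 25 higher and 50 lower probes, and 44 of those 50 were small RNAs. The AEZS-136 and vehicle arrays did not overlap for 8263 probes, or 56.2%. With 3 arrays against 3, the smallest p an exact test of 1 probe can give is 0.1.

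Calls were spread unevenly over the baseline. The median vehicle signal was 8.19 (log2) for probes that rose, 8.99 for probes that fell and 7.63 for those not called. After cutting the probes into 5 equal bins by vehicle signal, the shares that rose were 9.35%, 10.3%, 15.4%, 18% and 12.3% from the dimmest bin to the brightest, and 0.17%, 4.39%, 14.7%, 22.7% and 25.8% fell. Without the small RNAs the shares that fell were 0.171%, 3.89%, 13.6%, 21.8% and 24.8%. A probe near background can hardly fall further, and the vehicle signal also enters the fold change, so the bins describe the calls and carry no test. With bins cut by the mean of all 6 arrays, 17.5% rose and 20.1% fell in the brightest bin.

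The strongest rises joined stress response genes with non-coding transcripts that carry snoRNA genes. EPB41L4A-AS1, a long non-coding RNA on chromosome 5, had log2 signals of 12.91, 12.91 and 12.81 with AEZS-136, against 9.46, 9.29 and 9.48 with vehicle. All treated arrays were far above all control arrays, and the change was 3.46 ± 0.08 (SE, adjusted p = 4.5e-21, limma). DDIT3 (CHOP, a transcription factor of the integrated stress response) had signals of 10.25, 10.62 and 10.35 with AEZS-136, against 7.29, 7.38 and 7.33 with vehicle. Its rise was 3.08 ± 0.10 (adjusted p = 3.9e-18, limma). PPP1R15A (GADD34), which brings a phosphatase to eIF2α and so restores translation, had 11.29, 11.23 and 11.41 with AEZS-136, against 8.28, 8.58 and 8.55 with vehicle. TRIB3, a pseudokinase induced by ATF4, had 12.1, 12.07 and 12.08, against 9.32, 9.49 and 9.44 with vehicle. The groups stayed apart for both genes, with rises of 2.84 and 2.66. ZFAND2A, a proteasome-associated protein induced by arsenite, rose by 2.51. Among other protein-coding genes, NFE2L1, a transcription factor for proteasome genes, rose by 2.04, and YPEL5, a subunit of a ubiquitin ligase, by 2.00. H4C14, a histone H4 gene, rose by 2.34 and SHBG, the sex hormone-binding globulin, by 2.25. CCDC92 and CCNB1IP1 rose by 2.15 and 2.11. The near-identical NBPF10 and NBPF9 rose by 2.27 and 2.21, and their probes may share signal. Probes without a gene in the annotation rose too, ILMN_1654609 by 3.55 and ILMN_1766446 by 2.82.

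The deepest falls were small nucleolar RNAs (snoRNAs), which guide the chemical modification of ribosomal RNA, and scaRNAs, which do the same for spliceosomal RNAs. SNORA80E had log2 signals of 7.25, 7.17 and 7.24 with AEZS-136, against 11.69, 11.37 and 11.69 with vehicle, a change of -4.36 ± 0.12 (adjusted p = 4e-20, limma). SNORA63 had 7.5, 7.63 and 7.57 with AEZS-136, against 11.96, 11.76 and 11.9 with vehicle, a change of -4.31. The groups were over 4 log2 units apart for these probes. SNORA28 and SNORA62 changed by -4.19 and -4.14, SCARNA8 by -3.70, and SNORA13, which was detected on only 1 of the 3 AEZS-136 arrays, by -3.72. SNORA7B, SCARNA13, SNORA57 and SNORA6 changed by -3.50 to -3.25. RNVU1-7 and RNU1-3 (-3.17 and -3.14) are near-identical spliceosomal RNA genes, so their probes may share signal.

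Of the 177 small RNA probes, 130 (73.4%) fell and 1 rose, beside 13.6% falling over all detected probes, and their median change was -0.97. The class was drawn from RefSeq gene types after the values had been seen. The box H/ACA snoRNAs, which guide pseudouridine formation, fell at 59 of 73 probes (median -1.24). The box C/D snoRNAs, which guide ribose methylation, fell at 36 of 62 (median -0.47). The scaRNAs fell at 14 of 15 (median -1.51) and the snRNAs of the spliceosome and of transcription control at 15 of 17 (median -2.27). The remainder fell at 6 of 10, among them TERC, the telomerase template, at 7.71, 7.68 and 7.8 with AEZS-136 against 9.93, 9.74 and 9.76 with vehicle. SNORD139 was the 1 that rose, at 7.73, 7.8 and 7.73 with AEZS-136 against 7.1, 7.03 and 6.95 with vehicle. Among the 95 probes detected on all 6 arrays, 75 fell, with a median of -1.25, while 48 of the 177 were detected on no AEZS-136 array. RNA5S9, a 5S ribosomal RNA gene outside this class, had 9.37, 9.51 and 9.62 with AEZS-136 against 12.6, 12.51 and 12.22 with vehicle, and was singled out after its value was seen. In the other lines the same 177 probes fell at 13 (SUP-HD1), 8 (KM-H2) and 48 (L-428), where 6.26%, 3.48% and 6.69% of all tested probes fell. The L-540 change was more negative than the mean of the other lines at 122 of the 177 (7.44% of detected probes), and at 0 more positive. The probes were admitted by the L-540 arrays, and their medians on the other lines' arrays were only 6.97 to 7.33. Many could hardly fall there, so these counts do not show that the other lines respond differently.

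Most snoRNAs are cut from introns of other genes, and most of the transcripts that hold them did not fall. Of 150 snoRNA and scaRNA probes, 109 lay in the span of a gene that was itself measured, by RefSeq coordinates without strand. The 78 that fell lay in 56 such host genes, of which 16 rose, 8 fell and 32 were not called. The median change was -1.23 for those RNAs and 0.08 for the hosts, and 75 of the 78 lay below their host. Those RNAs were taken because they fell and the hosts were not, so this gap was largely set in advance. SNORA13 changed by -3.72 while its host EPB41L4A-AS1 rose by 3.46, and SNORA9 by -2.56 while SNHG15 rose by 2.60. On the AEZS-136 arrays SNORA13 was detected on 1 of 3 and SNORA9 on 2 of 3, so the treated level is partly at background. SNORA63, SNORA28 and SNORA80E lie in EIF4A2, EIF5 and KHDC4, which rose by 0.70, 0.47 and 0.47.

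Among the non-coding host genes, 12 of 16 rose, 2 fell and 2 were not called, with a median of 1.90, and this grouping too was made after seeing the values. Of 104 other long non-coding RNA genes, 13 rose and 6 fell (median 0.05), while 14.7% of all 9052 genes rose and 14.6% fell. SNHG32 had 13.85, 14.08 and 13.84 with AEZS-136, against 10.97, 10.9 and 11.03 with vehicle (2.96 ± 0.11, adjusted p = 7.8e-17, limma). SNHG5 had 13.05, 13.1 and 13.02, against 10.28, 10.24 and 10.36 with vehicle (2.76 ± 0.15). SNHG7, SNHG8 and SNHG12 rose by 2.67, 2.32 and 2.25, although a further SNHG7 probe stood at -0.33 and was not called. SNHG6, ZFAS1, SNHG1, SNHG17 and SNHG11 rose by 1.95 to 1.05. SNHG9 and DANCR fell by 0.63 and 0.75, and SNHG4 (0.12) and MEG8 (-0.23) did not pass. The rise of these hosts was shared by the other lines, where 11 (SUP-HD1), 13 (KM-H2) and 12 (L-428) rose (of all tested probes 6.51%, 4.42% and 6.62% rose). L-540 was above their mean at 8 of the 16, where 6.65% of detected probes were more positive.

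Several protein-coding falls rested on 1 probe of a gene whose other probes were nearly level or, at HNRNPA2B1, also included a rise. RPL32, a ribosomal protein gene, had 7.39, 7.29 and 7.51 with AEZS-136 against 10.34, 10.08 and 10.05 with vehicle at ILMN_1782167 (-2.76). Its other probes changed by -0.10 and -0.01. SNORA7A lies within RPL32 and changed by -2.42, detected on 2 of the 3 AEZS-136 arrays. HNRNPA2B1, which binds RNA in splicing, changed by -2.57 at ILMN_2369682, by 1.32 at ILMN_3178792, and by -0.14 and -0.13 at the remaining probes. RPS24 and RPS15 changed by -1.85 and -1.81 at a single probe each, while their other probes lay between -0.19 and 0.01. Both RPL29 probes fell, by 2.06 and 1.88. RPL36A (-1.73) had only 1 probe among those detected. Genes without such a conflict included PLAAT4, a phospholipid-modifying enzyme (-1.87), NEFH, a neurofilament subunit (-1.85), and COL6A3, a collagen chain (-1.68 and -1.03 at its probes). ILMN_1819384 and ILMN_3240220, which have no gene in the annotation, changed by -2.36 and -2.02.

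Genes of mitosis fell almost without exception. In the list of 22 genes, 21 fell, none rose and BUB1B (-0.38) did not pass, with a median of -1.04 beside 0.02 over all genes, of which 14.6% fell. CCNA2, the S and G2 phase cyclin, had 8.26, 8.31 and 8.34 with AEZS-136, against 10.24, 10.3 and 9.92 with vehicle (-1.85 ± 0.12, adjusted p = 2.6e-12, limma). CDC20, the activator of the anaphase-promoting complex, had 10.24, 10.48 and 10.5, against 12.1, 12.15 and 11.93 with vehicle (-1.65 ± 0.08). CDK1, the mitotic kinase, and TOP2A, a topoisomerase, changed by -1.41 and -1.32. AURKB, a kinase of the chromosomal passenger complex, had 9.13, 9.16 and 8.95, against 9.82, 9.81 and 9.97 with vehicle (-0.78 ± 0.10, adjusted p = 4.2e-07, limma). TRIP13, a remodeller of checkpoint proteins outside the list, changed by -1.77. The fall was deeper than the mean of the other lines for 17 of the 22, where 7.44% of detected probes were more negative. The list had medians of -0.69 (SUP-HD1), -0.26 (KM-H2) and -0.05 (L-428).

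All 19 measured genes of DNA replication and nucleotide synthesis fell (median -1.07), beside 14.6% of all genes. At 13 the fall was deeper than the mean of the other lines, where 7.44% of detected probes were more negative. The list was also lower elsewhere, with medians of -0.68 (SUP-HD1), -0.34 (KM-H2) and -0.28 (L-428). RRM2, a subunit of ribonucleotide reductase, had 8.28, 8.23 and 8.37 with AEZS-136, against 9.93, 9.63 and 9.75 with vehicle (-1.47 ± 0.13, adjusted p = 8.1e-10, limma). MCM2 and MCM7, subunits of the replicative helicase, changed by -1.45 and -1.40, and TK1, thymidine kinase, by -1.37. DUT, which keeps uracil out of DNA, fell by 1.75 and 1.63 at 2 probes, while its dim probe ILMN_1721008 stood at 0.14. Of 12 cell cycle regulators 3 rose and 4 fell, beside 14.7% and 14.6% of all genes. GADD45A (1.54) and CDKN1A (1.01, the CDK inhibitor p21) were among those that rose, and CCND3, SKP2, CCNE1 and MYC fell by 0.41 to 0.64.

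The integrated stress response list moved the other way, with 11 of 14 genes up (14.7% of all genes), none down and a median of 1.03. ATF4, its central transcription factor, had 13.18, 13.2 and 13.13 with AEZS-136, against 11.75, 11.73 and 11.64 with vehicle (1.46 ± 0.09, adjusted p = 4.5e-13, limma), and a dim ATF4 probe stood at -0.11. ATF3 rose by 1.42, DDIT4, an inhibitor of mTOR, by 1.40, CEBPB by 1.15 and ASNS, asparagine synthetase, by 1.08. MTHFD2 (0.35), SLC7A11 (0.24) and SLC7A5 (0.20) did not pass. The list also stood high in the other lines, with medians of 0.77 for SUP-HD1, 1.02 for KM-H2 and 0.85 for L-428. Only DDIT3, TRIB3 and ATF3 rose further in L-540 than in their mean, where 6.65% of detected probes were more positive.

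Promoter sequence was searched for these 3 lists, since each has a well-known element. The shares cover every listed gene with a window, measured or not, which were 19 of 22 mitosis, 19 of 22 replication and 17 of 18 stress response genes. The windows run from 250 bases before to 50 bases after the start site (RefSeq, GRCh38.p14), and both strands were searched. TTTGAA, the core of the cell cycle homology element, was in the window of 11 of 19 mitosis genes (57.9%), against 18.2% of 27305 genes. CCAAT, the binding core of NF-Y, was in 15 of the 19 (78.9%), against 39.7% of all genes. TTTCGCGC, an E2F element, was in 4 of 19 replication genes (21.1%), against 0.63% of all genes. TGATGNAAN, the composite element bound by C/EBP and ATF proteins, was in 5 of 17 stress response genes (29.4%), against 4.45%. Here all genes are the 27305 with a window, not the 9052 measured ones. They were not matched to the lists by gene type or base composition, so the gap in shares may partly come from that. A match is a description and not a binding site. The windows below are those of the 2 called genes with the largest change per list that held all elements searched for that list, with the matches in capitals. CDC20 and CDK1 hold both mitosis elements, MCM2 and MCM7 the E2F element, and ATF3 and ASNS the composite element.
CDC20 promoter, chr1:43358731-43359030, plus strand: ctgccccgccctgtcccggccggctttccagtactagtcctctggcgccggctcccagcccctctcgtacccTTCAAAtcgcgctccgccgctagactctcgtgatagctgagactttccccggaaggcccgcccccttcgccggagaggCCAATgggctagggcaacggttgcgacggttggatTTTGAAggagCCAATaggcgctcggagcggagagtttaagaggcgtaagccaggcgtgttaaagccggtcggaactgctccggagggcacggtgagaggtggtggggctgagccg
CDK1 promoter, chr10:60778081-60778380, plus strand: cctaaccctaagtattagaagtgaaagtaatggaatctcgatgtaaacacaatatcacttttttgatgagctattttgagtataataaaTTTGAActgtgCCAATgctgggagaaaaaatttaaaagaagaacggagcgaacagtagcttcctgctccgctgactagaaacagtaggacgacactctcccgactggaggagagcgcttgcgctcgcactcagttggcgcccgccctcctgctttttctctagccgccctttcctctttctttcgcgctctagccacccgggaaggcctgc
MCM2 promoter, chr3:127598161-127598460, plus strand: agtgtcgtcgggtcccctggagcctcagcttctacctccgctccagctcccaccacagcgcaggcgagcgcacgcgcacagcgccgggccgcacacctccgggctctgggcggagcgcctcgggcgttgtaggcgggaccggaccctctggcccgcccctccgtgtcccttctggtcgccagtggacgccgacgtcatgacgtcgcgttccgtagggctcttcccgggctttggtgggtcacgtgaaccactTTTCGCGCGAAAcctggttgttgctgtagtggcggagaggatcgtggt
MCM7 promoter, chr7:100101348-100101647, minus strand: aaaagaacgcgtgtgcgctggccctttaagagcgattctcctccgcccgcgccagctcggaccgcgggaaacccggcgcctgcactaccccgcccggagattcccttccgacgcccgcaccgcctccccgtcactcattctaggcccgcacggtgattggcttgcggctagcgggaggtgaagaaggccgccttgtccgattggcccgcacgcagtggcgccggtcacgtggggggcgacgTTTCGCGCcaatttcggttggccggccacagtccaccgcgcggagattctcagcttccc
ATF3 promoter, chr1:212565157-212565456, plus strand: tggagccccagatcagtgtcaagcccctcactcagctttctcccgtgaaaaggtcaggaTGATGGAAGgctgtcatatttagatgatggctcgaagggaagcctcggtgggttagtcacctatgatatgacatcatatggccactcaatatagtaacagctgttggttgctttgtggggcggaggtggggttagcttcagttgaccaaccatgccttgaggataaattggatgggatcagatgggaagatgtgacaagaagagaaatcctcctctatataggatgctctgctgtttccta
ASNS promoter, chr7:97872359-97872658, minus strand: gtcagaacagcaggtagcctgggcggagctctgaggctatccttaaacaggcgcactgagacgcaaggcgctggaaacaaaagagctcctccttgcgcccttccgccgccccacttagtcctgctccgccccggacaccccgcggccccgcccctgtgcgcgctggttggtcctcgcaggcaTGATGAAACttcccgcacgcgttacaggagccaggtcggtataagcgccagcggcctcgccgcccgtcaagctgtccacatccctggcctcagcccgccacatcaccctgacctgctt
The MCM2 matches overlap each other on opposite strands.

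Lysosome and autophagy genes rose at 7 of 14, with none lower (median 0.51), beside 14.7% of all genes rising. WIPI1, which binds phosphoinositides on forming autophagosomes, had 9.8, 9.86 and 9.86 with AEZS-136, against 7.98, 8.05 and 7.92 with vehicle (1.85 ± 0.08, adjusted p = 1.9e-15, limma). MAP1LC3B, the autophagosome marker, LAMP2, a lysosomal membrane protein, and SQSTM1, a cargo receptor, rose by 1.40, 1.38 and 1.25. The response was above the mean of the other lines for 6 of the 14 (6.65% of detected probes) and below it for ULK1. The list was also higher elsewhere, with medians of 0.37 (SUP-HD1), 0.17 (KM-H2) and 0.44 (L-428).

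Of the lipid synthesis genes 6 of 13 rose, beside 14.7% of all genes, and none fell. SCD, the desaturase that makes oleate, had 11.89, 11.89 and 12.04 with AEZS-136, against 10.15, 9.97 and 10.19 with vehicle (1.84 ± 0.11, adjusted p = 4.5e-13, limma). INSIG1, LSS, FASN, ACACA and SREBF1, the transcription factor of the pathway, rose by 1.12, 1.08, 1.03, 0.82 and 0.81. The other 7 of 13 genes did not pass, among them the cholesterol enzymes HMGCS1 (-0.11) and SQLE (-0.03). At 8 of the 13 the change was more positive than in the other lines (6.65% of detected probes), where the list medians were -0.21, -0.18 and -0.18. LPIN1, a phosphatidate phosphatase outside the list, rose by 1.90 in L-540 and by at most 0.49 elsewhere.

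The counts of the next lists stand beside 14.7% of all genes rising and 14.6% falling. Ribosome biogenesis genes fell at 12 of 16, with none higher (median -0.67), led by NOLC1 (-0.91) and NOP56 (-0.89), a core protein of box C/D snoRNA particles. DKC1, the pseudouridine synthase of H/ACA particles, fell by 0.78 and FBL, the methyltransferase of C/D particles, by 0.43. Glycolysis genes fell at 7 of 15, including LDHA (-0.99) and PGAM1 (-0.98), while the glucose transporter SLC2A3 rose by 0.90. Class II MHC genes fell at 4 of 9 (HLA-DMB -0.82, HLA-DRA -0.70, CIITA -0.67, HLA-DPA1 -0.41). Class I genes were mixed, with 3 of 11 higher and 2 lower (1 without AEZS-136 array 3), among them HLA-E up by 0.97 and PSMB9, a proteasome subunit, down by 0.73. Heat shock genes fell at 3 of 12, led by the mitochondrial chaperonins HSPE1 (-0.98) and HSPD1 (-0.58), and HSPA1B rose by 1.03. Core histone genes rose at 2 of 11 (H4C8 1.29, H2BC5 1.20) and fell at 3, led by H2AC20 (-0.98).

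IER3, an early response gene linked to ERK signalling and survival, had 10.11, 10.22 and 10.15 with AEZS-136, against 11.08, 11.07 and 10.86 with vehicle. Its fall was 0.84 ± 0.08 (adjusted p = 2e-09, limma), against changes of 0.28 (SUP-HD1), 0.51 (KM-H2) and 0.57 (L-428). The difference from their mean was -1.30 (adjusted p = 2.9e-11, limma). The IER3 level also differed before treatment, since the vehicle arrays of the other lines lay between 7.88 and 8.8, below all 6 L-540 arrays. Among the 8 measured genes of ERK feedback, IER3 and MYC fell and DUSP5, an ERK phosphatase, rose by 1.42, with 11.57, 11.37 and 11.65 against 10.12, 10.06 and 10.14 with vehicle. The given DUSP6 probe was detected on 0 of the 6 L-540 arrays, and a second one (ILMN_2396020) stood at 0.32 without passing. TXNIP, a brake on glucose uptake, was also detected on 0 of 6 arrays, while it was detected on 12 of the 18 arrays of the other lines. Of 11 FOXO-linked genes 3 rose, led by KLF6 (1.40), and SOD2 fell by 0.63. NF-kB targets rose at 4 of 13, including TRAF1 (0.59) and TNFAIP3 (0.42), and fell at 3. Over all genes 14.7% rose and 14.6% fell. Without AEZS-136 array 2, 5 FOXO-linked genes rose, and without vehicle array 2, 2 NF-kB targets.

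Cell death genes rose at 6 of 17 and fell at 1, or at 2 without AEZS-136 array 2 or vehicle array 1, beside 14.7% of all genes rising and 14.6% falling. CFLAR, an inhibitor of caspase-8 activation, had 10.48, 10.15 and 10.63 with AEZS-136, against 8.62, 8.83 and 8.86 with vehicle (1.65 ± 0.12, adjusted p = 1.8e-11, limma). MCL1, BCL2 and BCL2L1, which protect mitochondria, rose by 0.85, 0.73 and 0.43, and PMAIP1 and TNFRSF10B, which promote death, by 0.65 and 0.62. MLKL, the effector of necroptosis, had 7.77, 7.68 and 7.64, against 8.35, 8.58 and 8.36 with vehicle, a fall of 0.73, and RIPK3 stood at -0.05. Antioxidant genes were mostly not called, with HMOX1 (0.81) and GPX1 (0.64) the 2 of 14 that rose, a share close to that of all genes. None fell, and 1 did without AEZS-136 array 2, vehicle array 1 or vehicle array 3.

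Signals to other cells changed in both directions, and the list counts here stand beside 14.7% of all genes rising and 14.6% falling. CD86, a costimulatory ligand, had 11.64, 11.74 and 12.02 with AEZS-136, against 10.19, 10.36 and 10.03 with vehicle (1.61 ± 0.10), and CCL3 rose by 0.69. LTA, lymphotoxin alpha, had 7.76, 7.78 and 7.48, against 9.08, 9.2 and 9.11 with vehicle (-1.46 ± 0.09), and CCL5 and TNF fell by 0.76 and 0.58. Of the 5 measured cytokine genes 2 rose and 3 fell, and only 1 rose without AEZS-136 array 1 or 3 or vehicle array 1. Of 14 JAK-STAT genes, STAT3, SOCS3 and SOCS2 rose by 0.69, 0.61 and 0.51 and PIM1, a STAT-induced kinase, fell by 0.97. The interferon-stimulated genes ISG15 and IRF7 rose by 0.97 and 0.67, while 1 of the 13 measured fell, so the list lay near the shares of all genes. Of 10 Hodgkin cell genes 3 rose and 2 fell, CD83 by 0.64 and FSCN1 by 0.48. The metallothioneins MT2A and MT1X fell by 1.11 and 0.89. The macrophage receptor gene CSF1R fell by 0.73, and none of the B or T lineage genes passed. Without AEZS-136 array 1, 1 T lineage gene rose, and without vehicle array 2, 1 fell.

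Detection itself changed at few strongly responding probes. On all AEZS-136 arrays and no vehicle array 362 probes were detected, and on all vehicle arrays and no AEZS-136 array 231. Only 120 of the first and 94 of the second were also called. For these probes the dim group gives a bound, so folds are stated as at least the ratio of the bright mean to the dimmest detectable signal, or to the probe's own signal where that was higher. The median bound was 1.13-fold for probes switched on and 1.15-fold for those switched off, and 4 and 19 reached 2-fold. A probe of SNHG32 (ILMN_2285708) was at least 3.59-fold higher, and NCAM2, a neural adhesion molecule, at least 2.17-fold. NCAM2 had log2 signals of 8.08, 8.01 and 8.13 with AEZS-136, against 6.74, 6.83 and 6.75 with vehicle. SESN2, a stress-induced sestrin, was at least 1.69-fold higher. Among probes switched off, 48 were small RNAs, including 15 of the 19 past 2-fold. RNU11, an RNA of the minor spliceosome, was at least 4.5-fold lower and RMRP, the RNA of RNase MRP, at least 4.33-fold. Histone probes, a group counted after the values were seen, made up 17 of those switched off and 1 of those switched on. They were 68 of the 14707 detected probes, and of all detected probes 1.57% were switched off and 2.46% on. H4C2 and H3C13 were at least 2.27-fold and 2.15-fold lower.

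Against the mean response of the other 3 lines, the L-540 response was more positive at 978 detected probes (6.65%) and more negative at 1094 (7.44%, 122 of them small RNAs). Over all tested probes these shares were 5.15% and 5.62%, and without the small RNAs 972 detected probes were more negative. Of the 1920 probes that rose, 840 (43.8%) rose further than that mean, and of the 1994 that fell, 934 (46.8%) fell further. In the same direction, 239 of the higher and 134 of the lower probes were called in all 3 other lines, and 744 and 792 in none. The probes were taken because they passed in L-540, and the same L-540 arrays enter the contrast, so the shares that went further were raised in advance. Admission asked for detection in L-540 only, so the 744 and 792 may include probes that are dim in the other lines. SHBG, H4C14, IL20RB (a cytokine receptor chain), SCD, LPIN1 and IL1RN (the interleukin receptor antagonist) led the positive differences. SHBG had 9.65, 9.27 and 9.3 with AEZS-136, against 7.19, 7.09 and 7.17 with vehicle, and changed by 0.01 (SUP-HD1), -0.11 (KM-H2) and 0.09 (L-428). IL20RB rose by 1.87 in L-540 and stood at -0.03 in each other line. NEFH fell by 1.85 in L-540 and stood at -0.01, -0.05 and -0.02 elsewhere. SHBG, IL20RB, IL1RN and NEFH were admitted by their detection in L-540, and their levels in the other lines are not given here. A flat value there may come from a probe that those lines do not express, so it does not show that they respond differently. EPB41L4A-AS1 rose in every line, with changes of 3.46 (L-540), 1.84 (SUP-HD1), 2.92 (KM-H2) and 3.16 (L-428). DDIT3 did so too, by 3.08 in the first of these and by 1.93, 2.87 and 2.24 in the others, in that order. SNORA80E stood at -4.36 in L-540, against -0.22 (SUP-HD1), 0.02 (KM-H2) and -0.80 (L-428), a difference from their mean of -4.03 (adjusted p = 1e-17, limma). Its vehicle signals in those lines were only 6.96 to 8.18, so it had less room to fall there. The RPL32 probe ILMN_1782167 changed by -2.76 in L-540, and by -0.07, -0.11 and -0.22 elsewhere without passing.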

How the data were processed

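The authors deposited linear signal intensities from BeadStudio without normalization, and beside each a detection value, a fraction read here as 1 minus the detection p. They also deposited a table of log2 values, which their methods describe as robust-spline normalized, and it served here as an alternative. The labels and methods read here leave the chip and software version unstated. The signals were log2-transformed without background correction, quantile-normalized over 24 arrays and filtered to the 20027 probes detected on at least 3 arrays. In limma 3.58.1 (R 4.3.3), 8 group means were fitted (16 residual and 8.94 prior degrees of freedom), with Benjamini-Hochberg adjustment over all tested probes. The number of arrays limits the precision.

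Lines, treatments and replicate numbers follow the labels, the vehicle follows the methods, and no array was left out. Genes came from GEO's probe annotation, with RefSeq for gene types and coordinates. Of the 14707 probes, 11686 had 1 symbol, 3 had several (left unnamed) and 3018 were not listed. Gene lists used the brightest detected probe of a gene. Named were the 12 largest rises and falls, the 12 largest among protein-coding genes, the 6 largest bounds of each switched set, the 6 largest differences from the other lines, the given probes and list examples. The members and lists were chosen with earlier results of these data known. On simulated data for L-540, 81% of 100 probes changed by 0.5 and 99% of 100 changed by 1 were recovered, and 0.0353% of unchanged probes were called. Alternatives were median scaling, cyclic loess, the authors' log2 values, normexp background correction with an offset of 16, other filters, the methods' t-test, other minimum changes, L-540 alone, the replicate block and leaving out each array. Leaving out the small RNA probes, and keeping only probes detected on all 6 arrays, were added after seeing the data.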

Additional observations from a re-analysis of the deposited data

Results flagged for a closer look

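For each named probe below except TXNIP, the L-540 response differed from the mean of the other 3 lines in the limma contrast (difference on the log2 scale). Among rises the difference was 0.83 for EPB41L4A-AS1, 0.73 for DDIT3, 0.75 for SNHG32, 0.92 for PPP1R15A, 1.57 for SNHG5, 0.98 for SNHG15, 0.55 for SNHG7, 1.19 for TRIB3, 0.94 for ZFAND2A, 0.68 for SNHG8 and 1.42 for NBPF10. Larger differences were 2.26 for SHBG, 2.04 for H4C14, 1.90 for IL20RB, 1.88 for SCD, 1.67 for LPIN1 and 1.65 for IL1RN. Whether the other lines express SHBG, IL20RB and IL1RN is not given here. Among small RNAs the difference was -4.03 for SNORA80E, -4.0 for SNORA28, -3.89 for SNORA63, -3.77 for SNORA62, -3.72 for SNORA13 (detected on 1 of 3 L-540 AEZS-136 arrays), -3.41 for SCARNA8, -3.41 for SNORA7B, -3.19 for SCARNA13, -2.86 for SNORA57, -2.80 for SNORA6, -3.00 for RNVU1-7 and -2.99 for RNU1-3, and the high L-540 vehicle arrays enter each of these. It was -0.68 for AURKB, -1.24 for RRM2 and -1.30 for IER3. AURKB and RRM2 fell about as far in SUP-HD1 (-0.86 and -1.33) as in L-540 (-0.78 and -1.47). They stood at 0.02 and 0.10 in KM-H2 and at 0.52 and 0.53 in L-428. The same contrast gave -0.75 for TXNIP, but no L-540 array detected that probe, so no L-540 response was measured and the value is not a difference between responses. The largest adjusted p among these differences was 0.0039 (SNHG7).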

How the results depend on the processing

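The largest rises and falls with a gene name, the largest among protein-coding genes and the given probes were followed singly under the alternatives. So were the largest differences from the other lines, and none of all these was reversed. Named probes outside these sets, such as other list examples and switched probes, were not followed singly. Lower probes slightly outnumbered higher ones, and this balance turned under normexp background correction, with no minimum change, with a minimum of 1 and without the small RNA probes (1919 higher, 1864 lower). Without the small RNAs it turned for the difference from the other lines as well (978 more positive, 972 more negative). Normexp background correction raised the counts to 3177 higher and 3059 lower probes, and to 1475 more positive than the other lines. With no minimum fold change they were 3528 higher, 3358 lower, 1680 more positive and 1781 more negative, and with a minimum of 1 they were 316, 289, 76 and 131. That minimum also removed AURKB (-0.78) and IER3 (-0.84). With detection above 0.95, 160 probes were switched on and 90 off, the same as with 0.99 against at or below 0.95, since a probe must still be detected on 3 arrays. With the call required as well, 120 were switched on and 94 off. Of the list counts over all settings, 833 stayed within 1.5 times and 85 did not, mostly under another minimum change. The other alternatives kept the total counts within 1.5 times, and the methods' t-test gave 1556 higher and 1734 lower. Leaving out each array in turn gave 1894 to 2019 higher and 1968 to 2096 lower. Against the other lines it gave 952 to 1036 more positive and 1053 to 1131 more negative. The switched counts were 362 to 514 on and 231 to 307 off, but they could not fall. The probe set stayed fixed, so a switched probe still had to be detected on all 3 arrays of its bright group. Leaving out an array could only loosen the rule for the dim group, so these ranges do not test the switched counts. Arrays sharing a replicate number deviated from their group means at correlations of 0.02, 0.13 and 0.04. These were not set beside arrays of different numbers, so whether the numbers pair arrays was not settled. With the replicate block, 1926 probes were higher, 1999 lower, 976 more positive and 1090 more negative. Signal close to background limits how far the dimmest probes can fall.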
